A study of Mus musculus with 2 samples.

Results

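Annexin A1, encoded by Anxa1, and the formyl peptide receptors encoded by Fpr1 and Fpr2 were followed in single cells of mouse periodontal ligament, the connective tissue that holds a tooth root in its socket. The 3 genes were taken by symbol from the 32285 genes of the deposited matrices, and all 3 were measured. Both groups were C57BL/6J male mice aged 8 weeks. In the orthodontic tooth movement (OTM) group a 10-g mesial force had been applied to the maxillary left first molar for 6 days. The control group was the unloaded right side. Each group was 1 library pooled from 5 mice, prepared from tissue left on extracted roots and in their sockets and digested with collagenase and then trypsin. The labels do not say whether the same mice gave both sides.

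Annexin A1 is a calcium-dependent phospholipid-binding protein whose synthesis is raised by glucocorticoids and which leukocytes and epithelia can release or expose on their surface. It acts through formyl peptide receptors, Gi-coupled receptors first known for guiding neutrophils to N-formylated peptides from bacteria and mitochondria. Fpr1 is the classical chemotactic receptor, and Fpr2 also binds annexin A1, lipoxins, serum amyloid A and cathelicidin. Annexin A1 is best known for limiting neutrophil entry into inflamed tissue and for favouring the clearance of dying neutrophils by macrophages.

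With 1 library per group there was no replicate, so no test between the groups was possible and no p-value is given. Levels are UMIs (counted molecules) of the gene per 1000000 UMIs of the cells named, written CPM. Brackets hold exact 95% intervals, Poisson for levels, Clopper-Pearson for shares of cells and conditional binomial for ratios. They cover counting error only and not differences between mice or digestions. Those of levels and ratios, made from summed UMIs, also leave out differences between the cells of a class. The control library held 369 barcodes and 5723299 UMIs, and the OTM library 1539 barcodes and 36010801 UMIs, against 5000 cells per sample aimed for in the protocol. After filtering, 348 and 1412 cells were kept, with medians of 14877 and 19583 UMIs, and the libraries shared 0 barcodes. Cells were clustered with 19 annexin and formyl peptide receptor genes held out of the variable genes, so that the genes described here did not shape the classes directly, and clusters were named from marker lists as "X-like". Fibroblast-like cells were the largest class, with 120 control and 544 OTM cells, and expressed Postn, the periostin gene typical of periodontal ligament, in 90.0% and 98.2% of cells.

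Anxa1 (ENSMUSG00000024659) lies on the minus strand at chr19:20373428-20390944 of GRCm38 and has up to 14 exons. Fpr1 (ENSMUSG00000045551) lies on the minus strand at chr17:17876471-17883940 and Fpr2 (ENSMUSG00000052270) on the plus strand at chr17:17887824-17893952, so that these receptor genes are neighbours read away from each other, with starts 3884 bp apart. Their promoters are shown because Fpr1 and Fpr2 followed nearly the same pattern across cell classes while Anxa1 did not. Each sequence is the 300 bases from 250 before the RefSeq gene start onward, on the gene's strand (RefSeq, GRCm38.p6). The Anxa1 window lies wholly within the gene interval given above, so its RefSeq start is not the outer end of that interval. Capitals mark TATAAA and AGAACA, the core of a glucocorticoid receptor site.
Anxa1, chr19:20390622-20390921, minus strand: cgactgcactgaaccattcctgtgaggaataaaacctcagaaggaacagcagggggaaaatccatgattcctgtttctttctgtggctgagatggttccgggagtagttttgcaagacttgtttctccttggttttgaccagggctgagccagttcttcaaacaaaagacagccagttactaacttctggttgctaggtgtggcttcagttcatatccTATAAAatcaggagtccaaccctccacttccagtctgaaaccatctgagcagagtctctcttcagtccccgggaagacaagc
Fpr1, chr17:17883890-17884189, minus strand: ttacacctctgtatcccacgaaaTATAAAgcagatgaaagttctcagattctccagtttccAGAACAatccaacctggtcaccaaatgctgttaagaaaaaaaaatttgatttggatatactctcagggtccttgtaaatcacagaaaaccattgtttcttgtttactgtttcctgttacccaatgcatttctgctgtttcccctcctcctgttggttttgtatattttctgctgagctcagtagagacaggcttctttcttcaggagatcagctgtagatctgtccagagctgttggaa
Fpr2, chr17:17887574-17887873, plus strand: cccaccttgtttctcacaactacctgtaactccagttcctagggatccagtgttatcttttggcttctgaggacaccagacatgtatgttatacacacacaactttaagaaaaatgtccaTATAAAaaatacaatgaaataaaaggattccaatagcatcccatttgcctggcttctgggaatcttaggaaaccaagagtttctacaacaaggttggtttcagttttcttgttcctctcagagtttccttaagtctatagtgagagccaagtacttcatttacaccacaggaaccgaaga

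Searching both strands, TATAAA occurred in all 3 promoters, against 13.6% of 32851 promoters of the same length. In Anxa1 it ran from 32 to 27 bases before the RefSeq start, the usual distance of a TATA box, whereas in Fpr1 and Fpr2 it began 227 and 130 bases before it. AGAACA occurred in Fpr1, from 189 to 184 bases before the start, against 19.0% of all promoters. Another pattern, TTNNGNAA (a loose C/EBP core, found in 40.7% of all promoters), occurred 1 time in Anxa1 and 3 times each in Fpr1 and Fpr2, and in Fpr1 1 of these matches overlaps the AGAACA letters. The patterns AGGAAG (a PU.1 core, 35.4% of all promoters), TGANTCA (an AP-1 site, 7.81%) and GGGCGG (a GC box, 35.7%) occurred in none of the 3 windows. The GC share was 47.3% for Anxa1, 40.0% for Fpr1 and 39.3% for Fpr2, against a median of 52.7%. A match is a run of letters and not evidence of binding.

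Anxa1 was most abundant in epithelial-like cells and in cells of the granulocyte lineage, and was found at lower levels in nearly every other class. In the control library it stood at 5220 CPM (4848 to 5612) in 5 granulocyte progenitor-like cells, at 4129 (3928 to 4338) in 33 neutrophil-like cells and at 3676 (3495 to 3864) in 20 epithelial-like cells. The intervals of these 3 classes did not overlap. Endothelial-like cells had 571 CPM, mural-like cells 535, fibroblast-like cells 442, osteoblast lineage-like cells 410, Schwann or glia-like cells 350 and dendritic-like cells 273, and each of these overlapped its neighbour in the order. Macrophage or monocyte-like cells had 61.1 CPM (38.3 to 92.5). Control B cell-like, erythroid-like and T or NK-like cells held 0 Anxa1 UMIs, which by the Poisson interval allows up to 71.5, 16.5 and 218 CPM.

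By class sums the OTM library had another order at the top. Epithelial-like cells led with 6212 CPM (6147 to 6278, 126 cells), followed by granulocyte progenitor-like cells with 4513 (4336 to 4696, 14 cells) and neutrophil-like cells with 2641 (2546 to 2738, 148 cells). Osteoblast lineage-like cells came next with 1133 CPM (1097 to 1169). Endothelial-like cells at 935 CPM (910.5 to 960) and fibroblast-like cells at 915 (899 to 931) did not differ beyond their intervals, and neither did mural-like cells at 820 and osteoclast-like cells at 775. Macrophage or monocyte-like cells stood at 593 CPM (536 to 655). The OTM erythroid-like and T or NK-like values, 97.0 and 315 CPM, each came mostly from 1 cell, which held 98.4% and 86.7% of the class's Anxa1 UMIs. The order at the top depended on how cells were weighted. As means over cells of each cell's CPM, epithelial-like cells stood above neutrophil-like cells in both libraries. These means were 6268 against 3177 in the control and 5792 against 1691 in the OTM library.

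**Figure D1:**
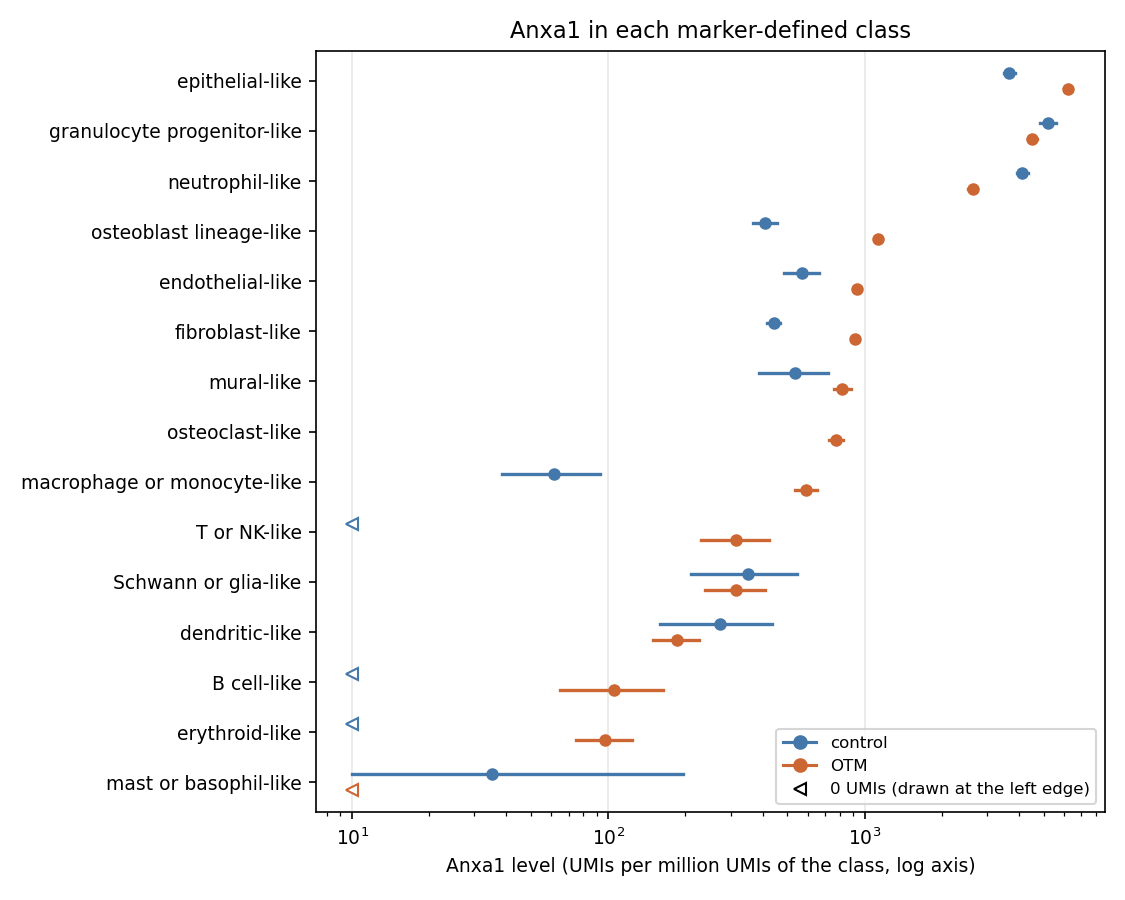
Level of Anxa1 (horizontal axis, CPM, log scale) in each class of the control (blue) and OTM (orange) library, with exact Poisson 95% intervals; open triangles mark 0 UMIs. Epithelial-like, granulocyte progenitor-like and neutrophil-like cells lie at 2641 CPM or above in both libraries, and the fibroblast, osteoblast lineage, endothelial and mural-like classes lie between 410 and 1133.

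Few cells held much of the tissue's Anxa1. In the control library 28.2% of all Anxa1 UMIs came from neutrophil-like cells (27.0 to 29.4), 27.6% from epithelial-like cells, 19.6% from fibroblast-like cells and 13.0% from the 5 granulocyte progenitor-like cells. In the OTM library 53.0% came from epithelial-like cells (52.6 to 53.4), 19.4% from fibroblast-like cells, 8.39% from endothelial-like cells and 4.56% from neutrophil-like cells. These shares depend on how many cells of each class were recovered as well as on their RNA. Summed over all kept cells, Anxa1 was 1004 CPM in the control and 1820 in the OTM library.

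**Figure D2:**
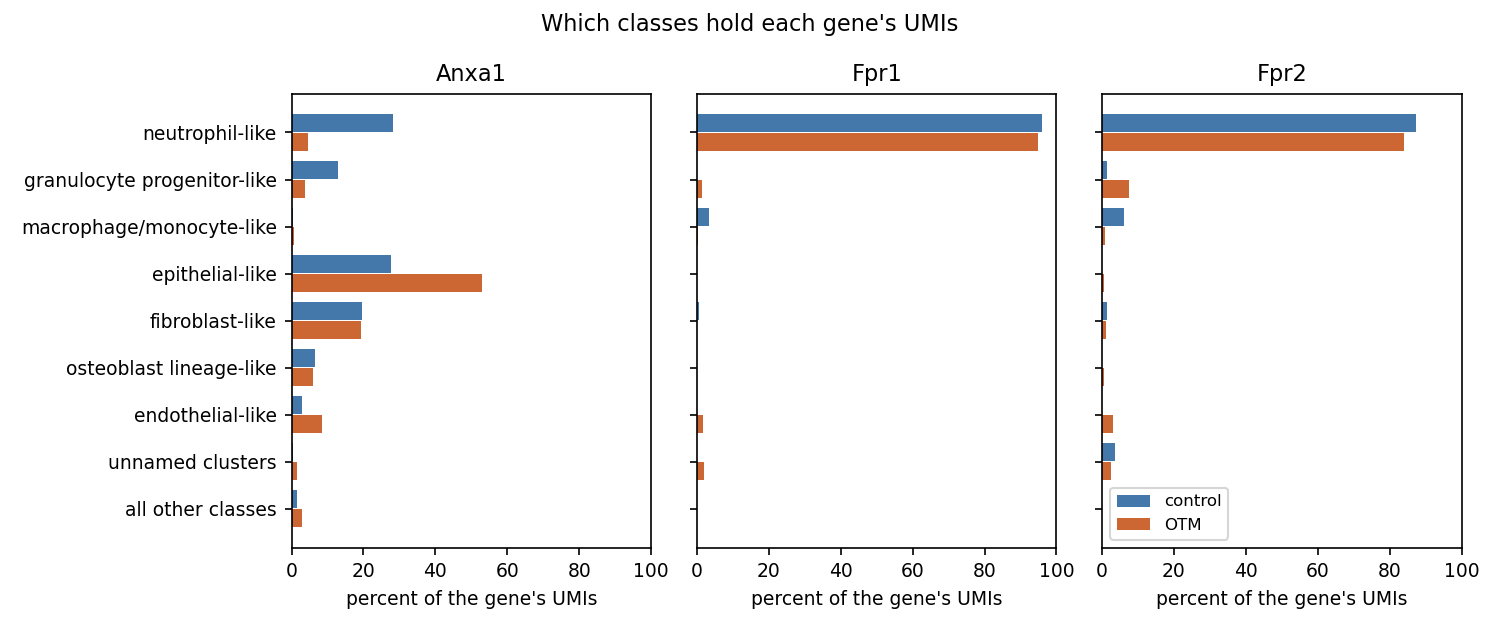
Percent of each gene's UMIs (horizontal axis) that came from each class in the control (blue) and OTM (orange) library. Neutrophil-like cells hold 96.1% and 94.7% of Fpr1 UMIs and 87.3% and 84.0% of Fpr2 UMIs, whereas Anxa1 UMIs are spread over several classes.

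Fpr1 came almost entirely, and Fpr2 mostly, from neutrophil-like cells. Neutrophil-like cells held 196 of 204 Fpr1 UMIs in the control library and 593 of 626 in the OTM library, and 117 of 134 and 320 of 381 Fpr2 UMIs. A UMI of Fpr1 was seen in 81.8% of control (64.5 to 93.0) and 80.4% of OTM (73.1 to 86.5) neutrophil-like cells. For Fpr2 the shares were 81.8% (64.5 to 93.0) and 75.7% (67.9 to 82.3). The control cells were deeper, and after thinning each cell to 1500 UMIs the order turned, to 30.3% (15.6 to 48.7) and 47.3% (38.9 to 55.7) for Fpr1 and 21.2% (8.98 to 38.9) and 32.2% (24.7 to 40.4) for Fpr2, with overlapping intervals. Fibroblast-like cells, which should lack both receptors and had deeper libraries (medians 19156 and 22252 UMIs against 11322 and 5412.5 in neutrophil-like cells), gave the background. There Fpr2 was seen in 1.67% of control and 0.735% of OTM cells, and Fpr1 in 1 control cell and in 0 of 544 OTM cells. In OTM endothelial-like cells 10 Fpr1 and 12 Fpr2 UMIs came from 3 cells each of 204. Neutrophil markers were also present in that class, with 14 of 15 detected and a summed level of 396 CPM against 102 in the control class, and their part in these counts was not tested. Of the 8 OTM barcodes called doublets by Scrublet, 5 lay in that class, and their part was not tested either.

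Across classes, the receptors were alike and the ligand was not. Over the 15 class sums with at least 20 cells, the log2(CPM + 10) profile of Fpr1 was most like that of Slfn1, a Schlafen family gene (Pearson r = 0.999), then Fpr2 (0.998), Trim30b (0.995), Camp, which encodes cathelicidin (0.989), and Pilrb1 (0.987), among 11122 genes. Fpr2 was most like Fpr1, Slfn1 (0.997), Trim30b, Csf3r, the G-CSF receptor (0.992), and Pilrb1 (0.988). Anxa1 was most like S100a11, the calcium-binding partner of annexin A1 (0.957), followed by S100a6 (0.942), Pdcd6 (0.878), Plp2 (0.876) and Ldha (0.874). The sums share libraries and depth, and the receptor values rest on the neutrophil-like sums standing apart from classes near 0.

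Neutrophil-like cells fell into 2 clusters that differed in all 3 genes. Cluster 8 was led by genes of the specific granules (Ltf, Ngp, Lcn2, Mmp8), and cluster 6 by Il1b, Acod1 and Csf3r with few granule transcripts. Anxa1 was 4634 CPM (4402 to 4874) in control cluster 8 and 1437 (1151 to 1773) in control cluster 6, and 4282 (4117 to 4451) against 751 (679 to 830) in the OTM library. Cluster 8 was therefore 3.22-fold higher in the control and 5.70-fold higher in the OTM library. Every cell of cluster 8 held Anxa1, 21 of 21 in the control and 51 of 51 in the OTM library, with cell values from 418 to 10119 CPM in the latter.

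Fpr1 had the opposite order, being 2.03-fold lower in cluster 8 than in cluster 6 in the control library (440 against 892 CPM) and 2.26-fold lower in the OTM library (335 against 757). Fpr2 was higher in cluster 8, 2.25-fold in the control (334 against 149 CPM, where cluster 6 held 9 UMIs) and 1.27-fold in the OTM library (318 against 250), with intervals of the log2 ratio of 0.19 to 2.34 and 0.02 to 0.68. Anxa3, another annexin of neutrophils, shared the order of Anxa1, at 361 against 71.3 CPM in the OTM library. Clusters 6 and 8 were formed without these genes but are contrasts within the same cells, so the differences describe these cells and are no test.

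Granulocyte progenitor-like cells (cluster 18, led by Elane, Fcnb and Prtn3) had the ligand but little of the receptors. Their Anxa1 level was 1.13-fold that of cluster 8 in the control library and 1.05-fold in the OTM library, where the log2 interval of -0.01 to 0.16 reached 0. Fpr1 there was 0 UMIs in 5 control cells and 9 UMIs in 14 OTM cells, of which 66.7% came from 1 cell, and was 20.1-fold lower than in cluster 8 in the OTM library. Fpr2 was 2 UMIs in the control and 29 UMIs from 8 cells in the OTM library (53.8 CPM), 5.91-fold lower than in cluster 8. Along progenitor-like, granule-rich and Il1b-rich cells of the OTM library the order was thus 4513, 4282 and 751 CPM for Anxa1, 16.7, 335 and 757 for Fpr1, and 53.8, 318 and 250 for Fpr2.

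Ligand and receptors were often seen in the same neutrophil-like cell. In the control library 25 of 33 cells held UMIs of both receptors, 2 of Fpr1 alone, 2 of Fpr2 alone and 4 of neither, and in the OTM library the counts were 95, 24, 17 and 12 of 148. Anxa1 and at least 1 receptor were found together in 28 of 33 control and 114 of 148 OTM cells. A receptor without Anxa1 was found in 1 control cell and in 22 OTM cells, and all 22 belonged to cluster 6. After each cell had been thinned to 1500 UMIs, leaving out 2 shallower OTM cells, a receptor without Anxa1 was found in 3 of 33 and 35 of 146 cells, with 35 of these 35 again in cluster 6.

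Between the libraries, Anxa1 in neutrophil-like cells was 1.56-fold lower in OTM than in control (4129 against 2641 CPM, log2 ratio -0.65, -0.73 to -0.56). Of 4397 genes with at least 20 UMIs in either library in this class, 7.35% had a ratio as low or lower, and the median was 0.24. The class held 383604 control and 1116816 OTM UMIs. A gene with 20 OTM UMIs and 3 or fewer control UMIs therefore counted as at least 2-fold higher. Over genes with at least 20 UMIs in both libraries the median was 0.02. The cell medians were 2866 CPM in the control, with cells from 0 to 8087, and 883 in the OTM library, with cells from 0 to 10119, so the cells overlapped. The share of cells with Anxa1 was 97.0% (84.2 to 99.9) in the control and 82.4% (75.3 to 88.2) in the OTM library, and 84.8% against 66.4% after thinning. The mix of clusters differed, with 21 of 33 control and 51 of 148 OTM cells in cluster 8. Within cluster 8 the log2 ratio was -0.11 (-0.21 to -0.02), and within cluster 6, with 12 control cells and 87 control UMIs, it was -0.94 (-1.27 to -0.58).

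The receptors differed less between the libraries. Fpr1 was 511 CPM (442 to 588) in control and 531 (489 to 575.5) in OTM neutrophil-like cells, a log2 ratio of 0.06 (-0.18 to 0.30). Fpr2 was 305 CPM (252 to 366) against 287 (256 to 320), a log2 ratio of -0.09 (-0.40 to 0.23). These intervals reach log2 ratios of 0.30 and -0.40 and do not show that the levels were the same. Within cluster 8 Fpr1 was lower in OTM cells, with a log2 ratio of -0.39 (-0.71 to -0.07). In cluster 6 it was -0.24, with an interval that held 0 (-0.65 to 0.20). Fpr2 was -0.07 (-0.42 to 0.28) in cluster 8 and 0.75 (-0.22 to 1.91) in cluster 6. In none of the 3 genes did the neutrophil-like class pass a 2-fold difference, which 19.2% of genes passed upward and 1.84% downward.

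**Figure D3:**
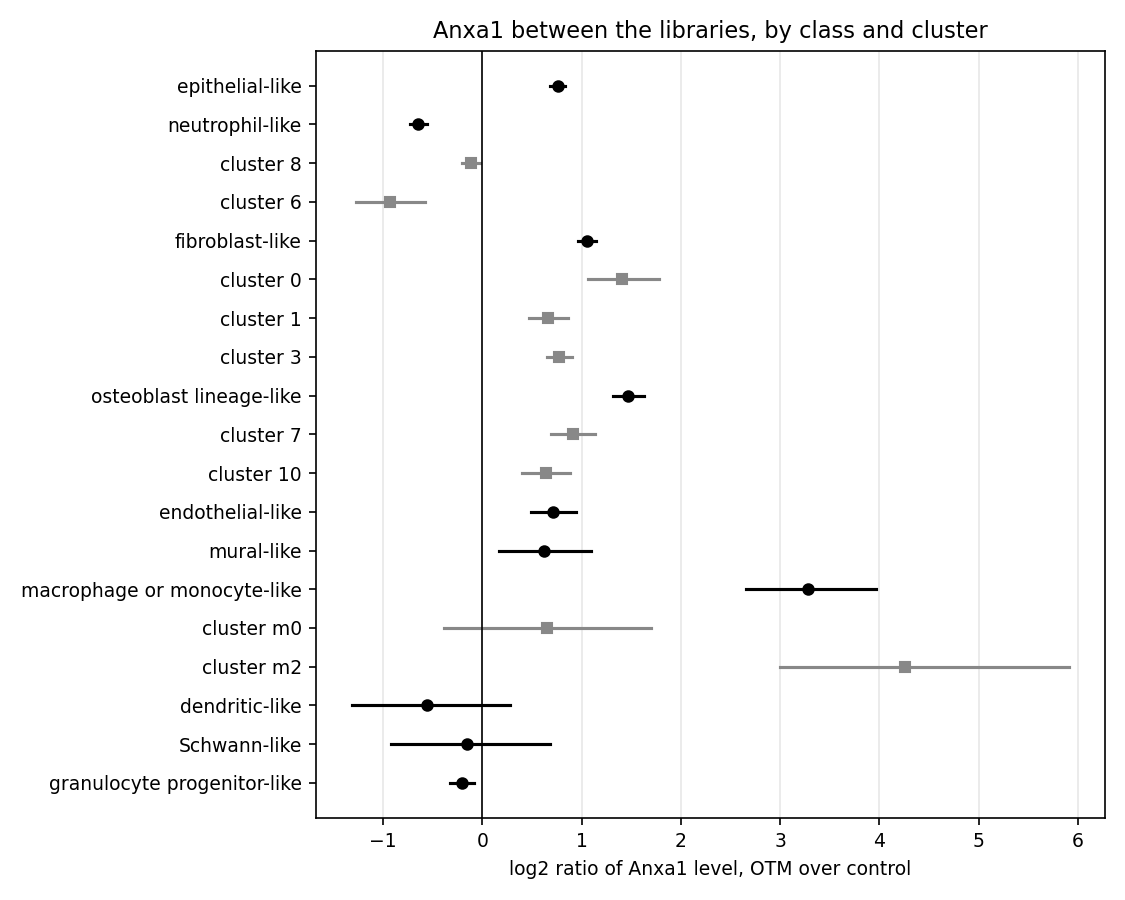
Log2 ratio of the Anxa1 level, OTM over control (horizontal axis), by class (black circles) and by cluster within a class (grey squares), with conditional binomial 95% intervals; the vertical line is a ratio of 1. Neutrophil-like cells lie at -0.65, fibroblast-like cells at 1.05, osteoblast lineage-like cells at 1.47 and macrophage or monocyte-like cells at 3.28.

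In stromal classes Anxa1 was higher in the OTM library. Fibroblast-like cells went from 442 CPM (416 to 469) in the control to 915 in the OTM library, 2.07-fold (log2 ratio 1.05, 0.96 to 1.14). The 2-fold mark was passed upward by 6.07% of genes in this class and downward by 7.03%, and 5.62% had a ratio as high as that of Anxa1. The cell medians were 305 and 705 CPM, and a UMI was found in 93.3% and 96.3% of cells. The clusters of this class were mixed differently, with 86 of 120 control cells in cluster 3 (led by Pcp4 and Wif1) and 224 of 544 OTM cells in cluster 0 (led by Ccn5, Mmp13 and Sfrp4). Within each of the 3 clusters with more than 1 control cell the OTM level was higher: 739 against 433 CPM in cluster 3 (log2 ratio 0.77, 0.65 to 0.90), 878 against 554 in cluster 1 (0.66, 0.47 to 0.86) and 1008 against 380 in cluster 0 (1.41, 1.06 to 1.78), where the control had 7 cells and 5.82% of genes were at least 2-fold higher.

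Osteoblast lineage-like cells went from 410 CPM (369 to 454) to 1133, 2.76-fold (log2 ratio 1.47, 1.31 to 1.63), beside 8.45% of genes at least 2-fold higher. Cluster 10 had more Anxa1 than cluster 7 in both libraries, 4.08-fold in the control and 3.38-fold in the OTM library, and held 11 of 33 control and 59 of 115 OTM cells. Within the clusters the log2 ratios were 0.91 (0.69 to 1.13) in cluster 7 and 0.64 (0.40 to 0.88) in cluster 10, below 2-fold in each.

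Endothelial-like cells went from 571 to 935 CPM (log2 ratio 0.71, 0.49 to 0.95), short of the 2-fold that 4.63% of genes reached. One of the 14 control cells held 54.3% of the class's Anxa1 UMIs, and the cell medians were 259 and 721.5 CPM. Without the cell with most Anxa1 in each library the log2 ratio was 1.67. The classes were unlike in other markers: the sum of 6 lymphatic endothelial markers was 3192 CPM in control cells, led by Ccl21a, and 72.9 in the OTM library, where Ccl21a was at 0. Fibroblast markers summed to 123 and 1033 CPM, with 9 and 15 of 15 detected. The part of either in the Anxa1 ratio was not tested. Mural-like cells went from 535 to 820 CPM (0.62, 0.17 to 1.10) with 6 control cells. Schwann or glia-like cells (-0.16, -0.93 to 0.68) and dendritic-like cells (-0.56, -1.31 to 0.28), with 4 control cells each, had intervals that held 0.

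Epithelial-like cells varied widely among themselves, and their difference between libraries depended on how cells were weighted. The sum over cells went from 3676 to 6212 CPM (log2 ratio 0.76, 0.68 to 0.83), short of the 2-fold that 5.9% of genes reached. But 1 of 20 control cells held 29.6% of the UMIs, and the mean of the cells' own CPM was 6268 in the control and 5792 in the OTM library, which turned the log2 ratio to -0.11. Divided further, the class showed a range of Anxa1 levels. A group led by Sprr2f, Psca, Lcn2 and Defb6, genes of superficial keratinizing epithelium, had 15651 CPM in 7 control and 27684 in 3 OTM cells. A second group with Sprr2 genes and Chil1, found in 12 OTM and 0 control cells, had 11656 CPM. A group led by Amtn and Ambn, genes of the epithelium that seals gum to tooth, had 1659 CPM in 9 control and 1040 in 6 OTM cells. Since 7 of 20 control and 3 of 126 OTM cells belonged to the group with the highest level, the class sums compare unlike mixtures. Stromal markers moved with the class, as 15 fibroblast markers summed to 665 CPM in the control, with 8 detected, and to 3901 in the OTM library, with 14. A group led by Krt13, Col1a1 and Col1a2 was found in 16 OTM and 0 control cells. Whether stromal RNA had a part in the Anxa1 sum was not tested here.

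Macrophage or monocyte-like cells showed a wider Anxa1 difference between libraries than any other named class with UMIs in both, 61.1 CPM (22 UMIs in 30 cells) against 593 CPM (391 UMIs in 40 cells), 9.70-fold (log2 ratio 3.28, 2.66 to 3.97). In this class 17.5% of genes were at least 2-fold higher, and 0.679% of 4712 genes had a ratio as high. A UMI was found in 7 control and 28 OTM cells, and the cell medians were 0 and 473 CPM. The clusters that made up the class differed. In cluster m0, led by Mrc1, Pf4 and C1q genes (16 control and 13 OTM cells), Anxa1 was 105 against 166 CPM (log2 ratio 0.65, -0.39 to 1.70). In cluster m2, led by Ccl3, Ccl4, Ccl7 and Ccl12 (12 cells in each library), it was 25.7 CPM from 5 UMIs against 493 from 124 (4.26, 3.0 to 5.91), in a cluster where 19.8% of genes were at least 2-fold higher. Cluster m6, led by C1q genes and Trem2, had 0 UMIs in 2 control cells and 832 CPM in 15 OTM cells.

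Markers of other cell types moved with that difference. Summed over 15 fibroblast markers, m2 had 242 CPM in the control and 10576 in the OTM library, with Aspn, Mfap5 and Thy1 at 0 in the latter, and m0 had 564 and 415. Of the 12 OTM cells of m2, 1 was called a doublet. In OTM m6 the fibroblast marker sum was 207 CPM, with 7 of 15 markers detected. Its control side was 2 cells, 1 of them called a doublet, too few to compare the libraries within m6. Osteoblast lineage markers, almost entirely Spp1, the osteopontin gene, which macrophages can also express, summed to 194 CPM in control and 11488 in OTM cells of the class. They reached 24452 CPM in OTM m6, against 0 in its 2 control cells. Osteoclast markers summed to 422 and 1705 CPM in the class and neutrophil markers to 119 and 585. The part of other cells' RNA in the Anxa1 values was not tested. Dendritic markers, led by MHC class II genes, summed to 18373 CPM in control and 6043 in OTM cells of the class. The unnamed clusters m1 (led by Ctss and H2-Eb1, 1 control and 28 OTM cells) and m3 (led by F13a1 and Ccr2, 4 and 17 cells) stood at 734 CPM in OTM m1, and at 450 and 631 in m3. With both included the log2 ratio was 2.62 (2.20 to 3.08), beside 19.4% of genes at least 2-fold higher.

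The receptors were scarce in these cells. They stood above the fibroblast-like background, but in the OTM library not beyond the intervals of endothelial-like or epithelial-like cells. Macrophage or monocyte-like cells held 7 Fpr1 UMIs in 5 of 30 control cells (19.4 CPM, 7.82 to 40.1) and 2 in 2 of 40 OTM cells (3.03, 0.367 to 10.96). For Fpr2 they held 8 UMIs in 5 control cells (22.2 CPM, 9.59 to 43.8) and 3 in 3 OTM cells (4.55, 0.938 to 13.3). Fibroblast-like cells of the control had 0.403 CPM of Fpr1 (0.0102 to 2.24) and 0.805 of Fpr2 (0.0975 to 2.91), and those of the OTM library 0 UMIs of Fpr1 (up to 0.269 CPM) and 0.292 CPM of Fpr2 (0.0796 to 0.748). These intervals lie below those of the macrophage or monocyte-like cells of the same library, of which the OTM values rest on 2 and 3 UMIs. The OTM values did not stand apart from 2 other non-myeloid classes. OTM endothelial-like cells had 1.72 CPM of Fpr1 (0.826 to 3.17) and 2.07 of Fpr2 (1.07 to 3.61). OTM epithelial-like cells had 0 UMIs of Fpr1 (up to 0.669 CPM) and 0.363 CPM of Fpr2 (0.0439 to 1.31). In the control library both classes held 0 UMIs of either receptor. The log2 ratios were -2.68 (-5.98 to -0.29) for Fpr1 and -2.29 (-4.84 to -0.23) for Fpr2, from too few UMIs to give a size. The unnamed cluster m1 alone held 11 Fpr1 UMIs in its OTM cells (19.6 CPM). With m1 and m3 included, the log2 ratio was -0.79 (-2.19 to 0.76) for Fpr1 and -1.66 (-2.97 to -0.34) for Fpr2. For Fpr1 the direction turned when doublets called by Scrublet were removed before clustering (2 against 12 UMIs, log2 ratio 0.28), a setting that changed which clusters made up the class. Osteoclast-like cells, all 21 in the OTM library and with a median of 57673 UMIs each, held 0 UMIs of Fpr1 and Fpr2, which allows up to 3.16 CPM by the Poisson interval. They held Anxa1 in 21 of 21 cells, at 254 to 1958 CPM. Dendritic-like cells held 0 UMIs of both receptors in both libraries.

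**Figure D4:**
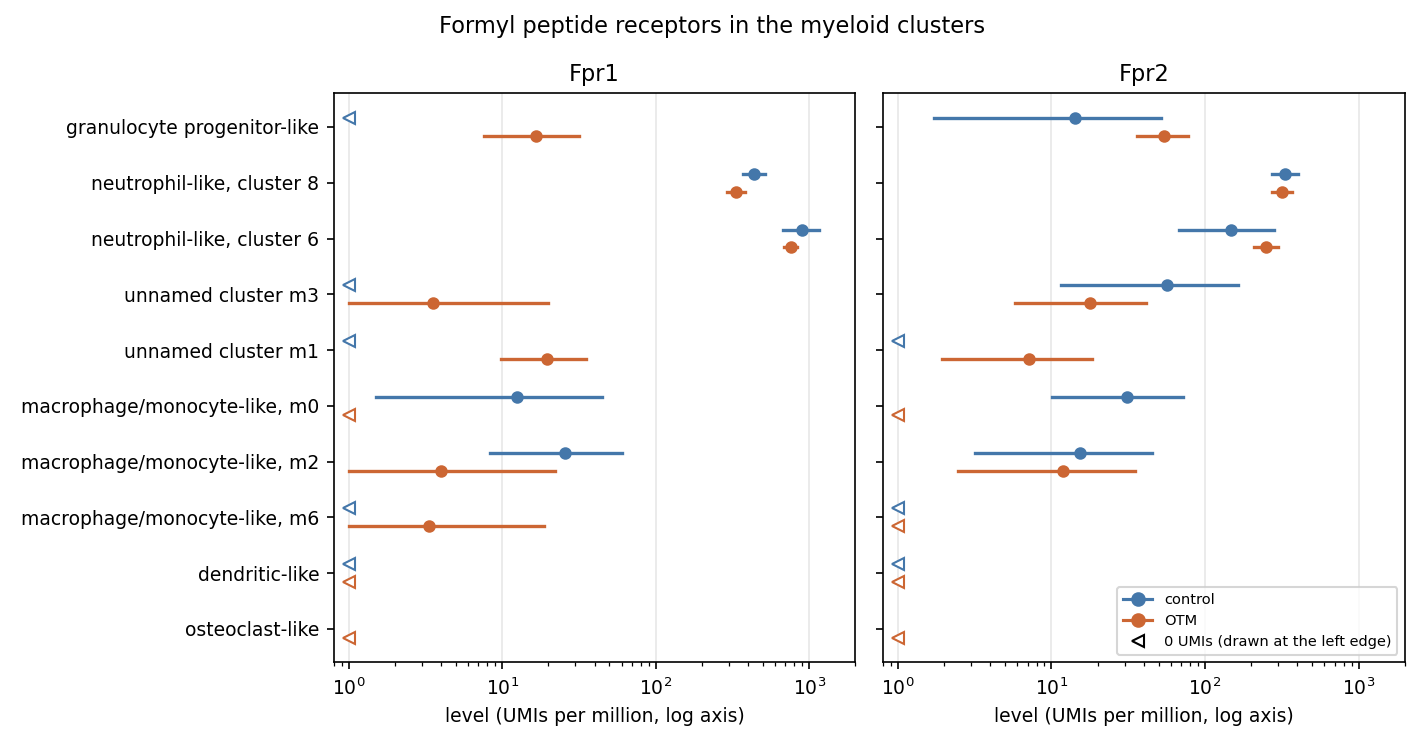
Levels of Fpr1 (left) and Fpr2 (right) in CPM (horizontal axes, log scale) in the myeloid clusters of the control (blue) and OTM (orange) library, with exact Poisson 95% intervals; open triangles mark 0 UMIs. The neutrophil-like clusters 6 and 8 lie between 149 and 892 CPM, and the other clusters lie at or below 56.3.

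Counting can blur the receptors with their relatives. Fpr3, a close relative of Fpr2, overlaps it on the same strand, and 82 of 1295 stretches of 50 bases in Fpr2 transcripts also occur in Fpr3, but 0 of the 550 within the last 500 bases, where 3' reads mostly fall. Fpr3 itself had 2 UMIs in control and 24 in OTM neutrophil-like cells (5.21 and 21.5 CPM, log2 ratio 2.04, 0.03 to 5.17). Fpr1 shared 1 of 1275 stretches with Fpr2 and 0 with the other relatives. On the strand opposite Anxa1 lies the long noncoding RNA gene 1500015L24Rik, which had 87 UMIs in the control and 603 in the OTM library beside 5615 and 64654 for Anxa1. How the counting treated strand and overlaps is not given in the sources used here.

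Of 82 other genes of the pathway, listed by role, 48 had at least 20 UMIs in either library in neutrophil-like cells. Of these, 10 were at least 2-fold higher in the OTM library and 0 lower, beside 19.2% and 1.84% of all genes. The other annexins differed little in neutrophil-like cells: 5 were measurable and 0 passed 2-fold in either direction. Their median log2 ratio was -0.01, beside 0.24 over all genes and 0.02 over genes with at least 20 UMIs in both libraries. Anxa2, which pairs with S100a10 at membranes, was 730 CPM in the control against 721 in the OTM library. Anxa11 was 373 against 385 CPM. Of the S100 partners, S100a11 (4919 against 5386 CPM) and S100a6 (5618 against 4493) were within 2-fold. S100a10 went from 0 UMIs to 165, at least 18.9-fold higher against a floor of 3 UMIs, with an interval of the log2 ratio that began at 3.93. Against the same floor it was at least 8.65-fold higher in cluster 8 (log2 interval from 2.76), beside 11.5% of genes at least 2-fold higher, and at least 4.55-fold in cluster 6 (from 1.86), beside 7.16%. S100a4 went from 0 to 22 UMIs, at least 2.52-fold higher against that floor, but the conditional binomial interval of its log2 ratio began at 0.91, under 2-fold.

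Genes that answer or oppose annexin A1 signalling in neutrophil-like cells are given with the control value first and the OTM value second. Ptgs2, the inducible cyclooxygenase, was higher in the OTM library, at 78.2 against 273 CPM (log2 ratio 1.80, 1.26 to 2.40). Ptgs1 was 18.2 against 20.6 CPM. Camp, which encodes the Fpr2 agonist cathelicidin, was 17010 against 12471 CPM, and Alox5ap, the partner of 5-lipoxygenase, was 1734 against 1383. Of the receptors' signalling chain 11 of 12 genes were measurable and 0 passed 2-fold, with Gnai2, the Gi subunit, at 873 against 767 CPM and Rac2 at 1051 against 854. Other chemoattractant receptors of neutrophils were also within 2-fold, C5ar1 at 560 against 714 CPM and Cxcr2 at 487 against 467. Cx3cr1 was the exception among 8, at 18.2 against 52.8 CPM (log2 ratio 1.53, 0.40 to 2.91).

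Of the glucocorticoid receptor and its induced genes, 8 of 8 were measurable in neutrophil-like cells, where 19.2% of all genes were at least 2-fold higher. By point value Per1, Dusp1 and Sgk1 were at least 2-fold higher in the OTM library. Dusp1 was 446 against 1049 CPM (log2 ratio 1.23, 1.00 to 1.47). Per1, with 7 against 45 UMIs, had an interval that held 0 (1.14, -0.02 to 2.54). For Sgk1, with 14 against 86 UMIs, the interval began under 2-fold (1.08, 0.25 to 2.01). Tsc22d3, which encodes GILZ, was 86.0 against 61.8 CPM (-0.48, -1.10 to 0.17). Tsc22d3 was lower in OTM fibroblast-like cells (330 against 194 CPM), epithelial-like cells (138 against 29.6) and endothelial-like cells (233 against 68.4) and was 108 against 97.4 in osteoblast lineage-like cells. The median of the list was -0.28, -0.76 and -0.85 in the first 3 of these classes, beside -0.02, -0.22 and -0.23 over all genes, and 0.06 in osteoblast lineage-like cells beside 0.11. It was -0.41 in macrophage or monocyte-like cells beside 0.19, and 0.36 in neutrophil-like cells beside 0.24. Whether this route bore on Anxa1 was not tested. Of genes that mark resolution, Tgfb1 (33.9 against 114 CPM) and Il10 (41.7 against 107) were at least 2-fold higher in OTM neutrophil-like cells by point value. Their log2 ratios were 1.75 (0.92 to 2.69) and 1.37 (0.61 to 2.22), with intervals that began under 2-fold.

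In macrophage or monocyte-like cells the annexins and their partners stood higher together in the OTM library. Of 50 listed genes measurable there 9 were at least 2-fold higher and 7 lower, beside 17.5% and 6.94% of all genes. Of 7 other annexins 4 were at least 2-fold higher and 0 lower, with a median log2 ratio of 1.11 beside 0.19 over all genes: Anxa2 (30.6 against 519 CPM), Anxa4 (38.9 against 155), Anxa5, the phosphatidylserine binder (458 against 992), and Anxa11 (33.3 against 92.5). All 4 S100 partners were at least 2-fold higher, S100a4 at 72.2 against 1535 CPM, S100a6 at 111 against 1009, S100a10 at 172 against 1250 and S100a11 at 111 against 554. Fibroblast-like cells of the OTM library also express these genes, and the marker sums given above stand beside these values too. Among the listed genes that were lower in these cells were Cx3cr1, the fractalkine receptor (472 against 150 CPM), Ptafr (256 against 121), Axl, a receptor for apoptotic cells (233 against 81.9), Il10 (517 against 253), Zfp36 (1270 against 517) and Pla2g4a, the cytosolic phospholipase A2 (83.3 against 33.4).

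**Figure D5:**
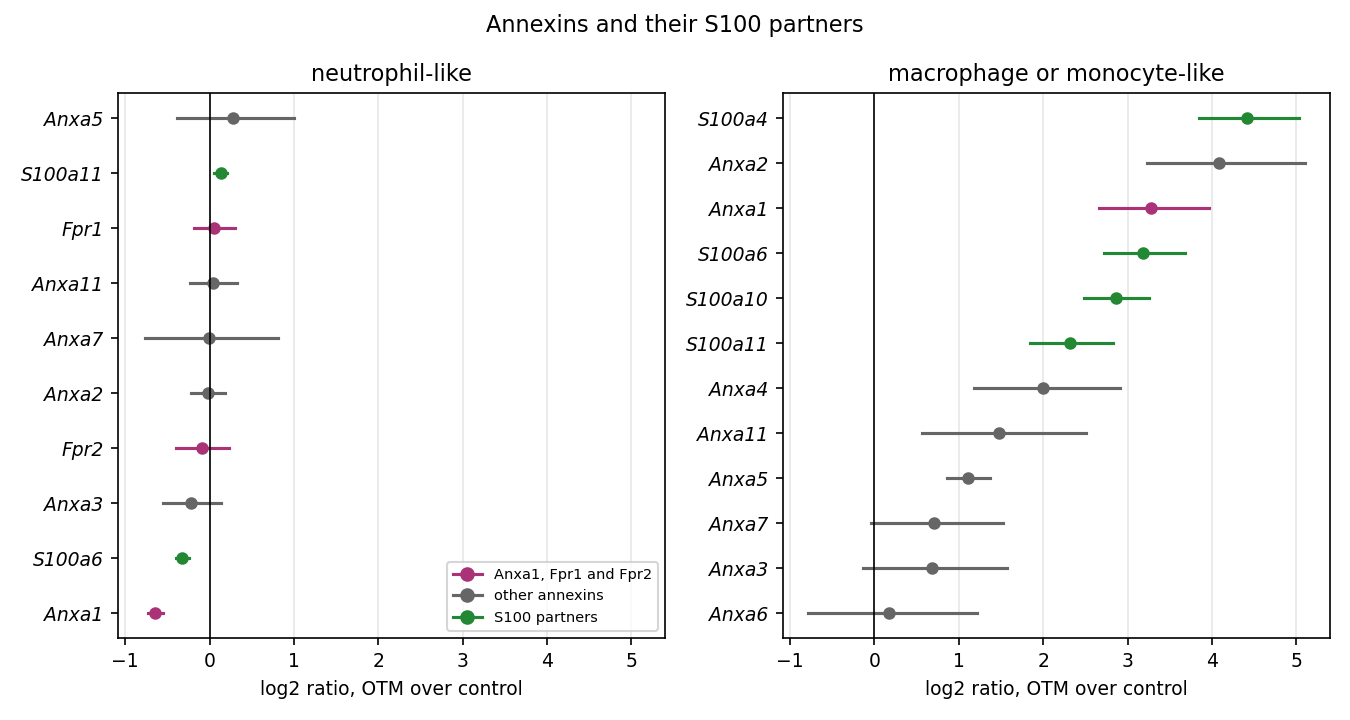
Log2 ratios, OTM over control (horizontal axes), of Anxa1, Fpr1 and Fpr2 (purple), other annexins (grey) and S100 partners (green) with at least 20 UMIs in either and at least 1 in each library, with conditional binomial 95% intervals. In neutrophil-like cells (left) Anxa1 is the lowest at -0.65, and in macrophage or monocyte-like cells (right) S100a4, Anxa2 and Anxa1 are the 3 highest.

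In stromal classes Anxa1 was not followed by the whole annexin family. In fibroblast-like cells Anxa2 was 407 against 511 CPM and Anxa5 783 against 733, and the median log2 ratio of 8 other annexins was 0.24 beside -0.02 over all genes. Anxa8 was the 1 other annexin past 2-fold, from 3 UMIs to 458 (log2 ratio 4.79, 3.23 to 7.07), and in osteoblast lineage-like cells it went from 1 UMI to 216 (5.81, 3.32 to 11.1), beside 6.07% and 8.45% of all genes at least 2-fold higher. Of the S100 partners, S100a4, S100a6 and S100a10 were at least 2-fold higher in fibroblast-like cells, with a list median of 1.49, where 6.07% of all genes were. In epithelial-like cells Anxa2 (1175 against 1129 CPM) and Anxa8 (793 against 569) did not share the higher sum of Anxa1.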

How the data were processed

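The matrices of UMI counts, 1 per library, were used as the authors deposited them. Per the file headers they came from Cell Ranger 7.0.1, and per the submitters' processing notes the builds were mm10 and GRCm38 and Seurat was used, in a role that is not given in the sources used here. Barcodes under 200 genes or over 20% mitochondrial UMIs were dropped, and the rest were clustered together in scanpy 1.11.5 (2000 variable genes, 30 components, 15 neighbours, Leiden resolution 1), with myeloid and lymphoid clusters divided again at resolution 0.8. Clusters were named from 23 marker lists, with at least 3 markers detected and a score of at least 0.5. The second-ranked list replaced the first where more of the 10 leading genes were its markers (at least 3), which named cluster 18 and left m1 unnamed. A cluster with more leading markers of another list, or with none and a median UMI count under a set share of its library's, stayed unnamed. Scrublet called 2 control and 8 OTM doublets, which were kept in the values given and removed in an alternative. UMIs were summed per class and library. Intervals and the floor of 3 UMIs cover counting error only. Other genes were named as the 2 most abundant of each list and those at least 2-fold different with at least 20 UMIs. Genes and lists were chosen with earlier results of these data known. Ratios and intervals were tried on simulated whole-library sums drawn with Poisson error. These had no spread between cells or mice, so the trial checks the calculation only and not how well the intervals fit real cells.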

Additional observations from a re-analysis of the deposited data

Results flagged for a closer look

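Anxa1 went opposite ways in different classes between the libraries, with intervals on either side of 0. The log2 ratio, OTM over control, was -0.65 in neutrophil-like cells, against 0.71 in endothelial-like, 0.76 in epithelial-like, 1.05 in fibroblast-like, 1.47 in osteoblast lineage-like and 3.28 in macrophage or monocyte-like cells. The difference between classes was not tested, since each group was 1 library. The cluster mix moved with the neutrophil-like value, as 21 of 33 control and 51 of 148 OTM cells lay in cluster 8, and the log2 ratio was -0.11 within cluster 8 and -0.94 within cluster 6. The direction in epithelial-like cells depended on how cells were weighted, as the log2 ratio was -0.11 as a mean over cells. Within the macrophage or monocyte-like class it was 0.65 in cluster m0, with an interval that held 0 (-0.39 to 1.70), and 4.26 in cluster m2.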

How the results depend on the processing

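No paired analysis was possible because each group was 1 pooled library. Of 148 values under alternatives, 97 stayed within the interval of the value reported (counts of genes within 1.5 times), 49 moved and 2 reversed; settings by single cluster, with m1 and m3, without the top cells, and all those of endothelial-like, epithelial-like and osteoblast lineage-like cells were chosen after seeing the data. Anxa1 log2 ratios, in neutrophil-like cells, were -0.37 with cells classed singly by their scores, -0.44 with each library clustered alone, -0.79 thinned to 1500 UMIs, -0.91 as a mean over cells, and -0.94 and -0.11 in clusters 6 and 8. In macrophage or monocyte-like cells they were 2.64 with the stricter cell filter, 2.53 with singly classed cells, 2.30 at Leiden resolution 2, 4.33 without the top cells, 0.65 in m0, 4.26 in m2 and 2.62 with m1 and m3. In fibroblast-like cells they were 1.19 with no cell filter, 0.96 thinned, 0.93 as a mean over cells, and 0.77, 0.66 and 1.41 in clusters 3, 1 and 0. In endothelial-like cells they were 0.34 with singly classed cells, 1.01 thinned and 1.67 without the top cells. In epithelial-like cells they were 1.19 with no filter, 0.42 with singly classed cells, 0.50 at resolution 2, 0.27 thinned, 0.99 with median-of-ratios scaling, 1.07 without the top cells, and reversed to -0.11 as a mean over cells. In osteoblast lineage-like cells they were 0.62 with no filter, 0.81 with the stricter filter, 1.03 with singly classed cells, 0.71 with each library clustered alone, 1.05 thinned and 1.02 as a mean over cells. In neutrophil-like cells Fpr1 was -0.24 in cluster 6 and -0.39 in cluster 8, and Fpr2 was 0.93 thinned, from 7 control UMIs, and 0.75 in cluster 6. In macrophage or monocyte-like cells Fpr1 reversed to 0.28 with doublets removed, from 2 and 12 UMIs. The interval of this Fpr1 ratio held 0 there and with no cell filter, the stricter filter, singly classed cells and resolution 2. It also held 0 without the top cells, in m2 alone and with m1 and m3. It lay below 0 with median-of-ratios scaling, with each library clustered alone, and with annexin and receptor genes among the variable genes. The cause was not tested in any of these, beyond the changed sets of cells.

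As means over cells, Anxa1 was 6268 and 5792 CPM in control and OTM epithelial-like cells, 3177 and 1691 in neutrophil-like cells, and 886 in OTM fibroblast-like cells. Thinning lowered the shares of neutrophil-like cells with a UMI, as fewer UMIs must, to 66.4% for Anxa1 in OTM, to 30.3% and 47.3% for Fpr1 and to 21.2% and 32.2% for Fpr2 in control and OTM. Thinned Fpr1 and Fpr2 shares were thus higher in OTM, whereas the unthinned shares were not. With no minimum on UMIs 12 listed genes were at least 2-fold lower in neutrophil-like cells, against 0. Fibroblast-like cells gave no value with each library clustered alone, since 0 control cells were named so, and thinned macrophage or monocyte-like sums gave no ratio, with 0 control UMIs of Anxa1 and Fpr1 and 0 OTM UMIs of Fpr2. The neutrophil-like Anxa1 ratio was below 0 in all 13 alternatives, and the fibroblast-like ratio above 0 in all 13. These counts overstate the agreement, since alternatives reuse the same cells. For neutrophil-like cells, no cell filter, Leiden resolution 2, and annexin and receptor genes among the variable genes left cell and UMI counts unchanged. Median-of-ratios scaling only shifted the same sums. Such repeats are also among the values counted above as having stayed within the interval. Outside neutrophil-like cells the receptors came to 12 UMIs or fewer per named class, granulocyte progenitor-like cells of the OTM library apart, which limits the precision of their ratios.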

Other observations

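Anxa1 was also present in the unnamed cluster 9, whose cells had a median of 744.5 UMIs in the control and 2144 in the OTM library. There it was 4 UMIs in 50 control cells (84.0 CPM) and 367 UMIs in 21 OTM cells (1590 CPM), of which 60.8% came from 1 cell. The cluster was left unnamed, as its highest marker score was 0.090 against the 0.5 required. In the small OTM cluster t2 (3 cells) Anxa1 was 3 UMIs.

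Within the epithelial-like class, 2 further groups found in the OTM library with 0 control cells held genes of dividing cells among those that led them. One, led by Csf3, a cytokine gene, Egr4, an immediate early gene, and Ube2c, a cell division gene, had 5920 CPM of Anxa1 in 19 cells, and another, led by histone genes, Cenpf and Mki67, had 3424 CPM in 16 cells.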
